A study of Homo sapiens with 60 samples.

Results

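HepG2 cells treated for 24 h with an ethanol extract of Poria Cocos were compared between the Medium dose, 100 µg/mL, and the Low dose, 20 µg/mL. The libraries were taken by the extract and dose in their titles, 3 at Medium and 3 at Low, and make up 6 of the 60 libraries of the series. HepG2 is an established human line from a hepatocellular carcinoma, and Poria is a fungus whose dried sclerotium is used in East Asian medicine. The series recorded messenger RNA after treatment with tonifying herbal extracts, each at High, Medium and Low doses, and after vehicle. Beside the Poria Medium and Poria Low groups, the Poria High group (500 µg/mL), the Medium and Low groups of the extracts of Atractylodis, Glycyrrhiza and ginseng (100 and 20 µg/mL) and the vehicle group are used here, with 3 libraries each. Every group is HepG2 cultured for 24 h and no group carries a genetic change. The vehicle is 0.1% DMSO per the sample labels and 2% DMSO per the series text, and the DMSO content of the treated cultures is not given in the sources used here. Nothing in the labels ties replicates to separate cultures, so p-values measure the spread between these libraries, which may be technical. Medium and Low of an extract carry the same set code in the descriptions, vehicle carries another, and what the code marks is not stated.

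Total counts were 23009258 to 27813153 in the Medium libraries and 23674355 to 25547847 in the Low libraries. The hepatic markers fixed for the check, among them ALB, AFP, APOB and HNF4A, were all present, with ALB at 9365 to 10931 CPM (counts scaled to a common library size, on TMM-scaled library sizes) over the 6 libraries. The endothelial markers KDR, TEK and EMCN, the leukocyte markers PTPRC, MS4A1 and CD163 and the fibroblast marker DCN had no count in any of the 6. The 10 fibroblast and stellate markers summed to 8.41 to 10.5 CPM at Medium and 7.42 to 10.1 CPM at Low, and the 10 endothelial markers to 9.11 to 10.6 CPM at Medium and 7.81 to 8.50 CPM at Low. The 11 leukocyte markers summed to 1879 to 1928 CPM at Medium and 1212 to 1326 CPM at Low, nearly all of it LYZ, the gene of lysozyme, which was called higher at Medium (log2 change 0.59 ± 0.06 SE, adjusted p = 1.56e-10). Of the tested markers, 1 of 3 fibroblast and stellate markers was called lower, and 1 of 5 endothelial and 2 of 4 leukocyte markers higher. The part of these markers in the results was not tested. Transcripts of the mitochondrial genome took 17.2% to 21.6% of the counts at Medium and 15.8% to 17.5% at Low, so the ranges overlapped, and 2554 genes were called with this share as a covariate, a fit added after seeing the data, beside 2516 without it. On the first principal component of the 9 Poria libraries, with 32.3% of the variance, the Medium libraries lay at -0.78 to 2.52, between Low at 26.0 to 31.6 and High at -31.2 to -26.4. In bulk samples such as these, fewer cells of a type and less RNA per cell cannot be told apart.

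Metallothioneins are small cysteine-rich proteins that hold zinc and copper. Their transcription follows the zinc available in the cell through MTF1, a zinc-sensing factor that binds metal response elements in their promoters and in that of SLC30A1, the exporter that carries zinc out through the plasma membrane. Immediate early genes such as EGR1 and FOS encode transcription factors that are switched on by growth factor and stress signals, largely through ERK and the serum response factor, which binds CArG boxes. NRF2 drives genes of glutathione synthesis, quinone reduction and electrophile removal, and SREBP2 drives cholesterol synthesis.

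Of 16284 genes tested, 2516 differed between Medium and Low at an adjusted p under 0.05, which is 15.5%. The 1329 higher at Medium are 8.16% of the genes tested, and the 1187 lower at Medium are 7.29%. Most changes were small: the median absolute log2 change of the called genes was 0.285, and 56 genes were higher and 48 lower by at least 1 on the log2 scale. The Medium and Low libraries did not overlap in CPM for 4156 genes, 25.5% of those tested, and 2256 of the called genes were among them. With the spread estimated from the 6 libraries alone, 827 genes were called, 467 higher and 360 lower. Of genes named below, calls of AKR1C1, ALB, APOB, EPHX1, FASN, FGB, FOSB, FTL, MYC, NFKBIA, SLC39A14, SMAD7 and TUBB1 were lost in that fit. The gene lists are read below against these background shares and against a median log2 change over all genes of 0.00.

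The 4 largest falls among the genes eligible to be named, those with a unique symbol, a mean of at least 2 CPM and no overlap between the doses, were all in metallothioneins. Of the 10 listed genes 7 could be tested, 6 of them fell, none rose, and the median log2 change was -1.63. The promoters of MT2A and MT1X are shown with that of SLC30A1 because these genes are textbook targets of MTF1 and fell here, and capitals mark every match to the metal response element core, TGCACNC or TGCGCNC on either strand. Each stretch is the 250 bases before the RefSeq start site on GRCh38.p14, written 5′ to 3′ on the strand of the gene: chr16:56608334-56608583 (plus strand) for MT2A, chr16:56682220-56682469 (plus strand) for MT1X and chr1:211579162-211579411 (minus strand) for SLC30A1.
MT2A: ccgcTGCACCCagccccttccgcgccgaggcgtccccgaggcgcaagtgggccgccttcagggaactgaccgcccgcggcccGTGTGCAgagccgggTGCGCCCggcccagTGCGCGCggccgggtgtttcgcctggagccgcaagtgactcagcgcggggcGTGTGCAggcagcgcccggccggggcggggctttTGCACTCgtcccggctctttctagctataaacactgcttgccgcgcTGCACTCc
MT1X: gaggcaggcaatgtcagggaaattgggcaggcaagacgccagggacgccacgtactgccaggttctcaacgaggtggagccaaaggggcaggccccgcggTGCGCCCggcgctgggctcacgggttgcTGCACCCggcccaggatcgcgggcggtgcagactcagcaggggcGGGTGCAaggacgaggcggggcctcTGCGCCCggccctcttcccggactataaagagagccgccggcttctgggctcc
SLC30A1: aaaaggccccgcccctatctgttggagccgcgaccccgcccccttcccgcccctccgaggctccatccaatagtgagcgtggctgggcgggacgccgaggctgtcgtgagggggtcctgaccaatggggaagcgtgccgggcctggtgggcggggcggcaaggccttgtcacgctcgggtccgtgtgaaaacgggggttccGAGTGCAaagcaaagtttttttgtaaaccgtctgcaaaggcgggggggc
The windows held 7 matches before MT2A, 4 before MT1X and 1 before SLC30A1. Over 35116 promoter windows of the same length, 24.8% held at least 1 match and 1.58% held 3 or more. A promoter was found for 4 of the 10 listed metallothioneins. Among them MT1H held 8 matches and MT4 held 3, and neither gene was among the 7 that could be tested.

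MT1F had 6.06, 4.92 and 7.60 CPM in the Medium libraries, against 35.0, 37.8 and 43.1 CPM in the Low libraries. The groups were far apart and did not overlap, and the log2 change was -2.64 ± 0.15 (SE, adjusted p = 1.55e-17). MT1G had 16.1, 15.4 and 17.2 CPM at Medium, against 86.8, 91.9 and 112 CPM at Low. Its log2 change was -2.58 ± 0.14 (adjusted p = 1.48e-18), and the vehicle libraries, at 84.5 to 102 CPM, overlapped the Low libraries. MT1E fell to 62.4, 65.7 and 71.0 CPM at Medium, against 177, 208 and 233 CPM at Low (log2 change -1.63, adjusted p = 1.44e-17). MT1X fell to 10.4, 11.9 and 11.5 CPM at Medium, against 27.3, 32.3 and 37.3 CPM at Low (log2 change -1.52, adjusted p = 2.01e-14). In each of these genes all 3 Medium libraries lay below all 3 Low libraries. MT2A, the most widely expressed human metallothionein, had 219, 221 and 236 CPM at Medium, against 386, 370 and 453 CPM at Low, without overlap. Its log2 change was -0.84 ± 0.13 (adjusted p = 4.5e-06). MT1M was also called lower, but it had at most 0.0734 CPM at Medium and at most 0.664 CPM at Low, where a fold change has little meaning. MT1A had 1.10, 0.770 and 1.35 CPM at Medium, against 1.27, 1.18 and 2.20 CPM at Low, and did not pass the test (adjusted p = 0.103), though it did without Low replicate 2 (log2 change -0.68, adjusted p = 0.0397). MT1 genes are near-identical copies of each other, so the split of reads between them is uncertain. The sum over the whole list depends less on that split and was 326 ± 15.7 CPM at Medium and 778 ± 90.2 CPM at Low (SD, n = 3 each).

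Transcripts of zinc transporters moved in both directions. SLC30A1 had 57.9, 58.4 and 67.0 CPM at Medium, against 91.8, 101 and 89.2 CPM at Low. The 3 Medium libraries were all lower, with a log2 change of -0.62 ± 0.06 (adjusted p = 1.23e-11). SLC39A10, an importer that brings zinc into the cell, had 29.01, 27.4 and 29.03 CPM at Medium, against 17.1, 17.6 and 14.1 CPM at Low. It rose, with a log2 change of 0.81 ± 0.06 (adjusted p = 3.51e-13) and no overlap. In the whole list of 18 tested zinc transporters and sensors, 3 rose and 3 fell: SLC30A7, which loads zinc into the Golgi, rose by 0.32 on the log2 scale and SLC39A4, a plasma membrane importer, by 0.30, while SLC39A11 fell by 0.35 and SLC39A14, an importer of zinc and iron, fell by 0.15. The SLC39A14 call was lost without Medium replicate 1 or without Medium replicate 2, with log2 changes of -0.13 and -0.14. MTF1 itself had 21.0, 19.3 and 16.8 CPM at Medium and 19.7, 20.5 and 15.9 CPM at Low, and did not pass the test (log2 change 0.03, adjusted p = 0.86). HAMP encodes hepcidin, the liver hormone that limits iron export and whose promoter in human cells also answers to zinc through MTF1. It had 2.39, 2.22 and 2.14 CPM at Medium, against 5.23, 3.30 and 5.19 CPM at Low. The log2 change was -1.02 ± 0.18 (adjusted p = 3.02e-05), the lowest Low library being closest to Medium. Among the other 12 tested genes of the hepcidin and BMP-SMAD list, ACVR1, a type I receptor, was called higher (0.39) and the feedback inhibitor SMAD7 lower (-0.31, adjusted p = 0.0304). The SMAD7 call was lost without Medium replicate 1, without Medium replicate 2 or without Low replicate 3, with log2 changes of -0.29, -0.30 and -0.23.

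**Figure D1:**
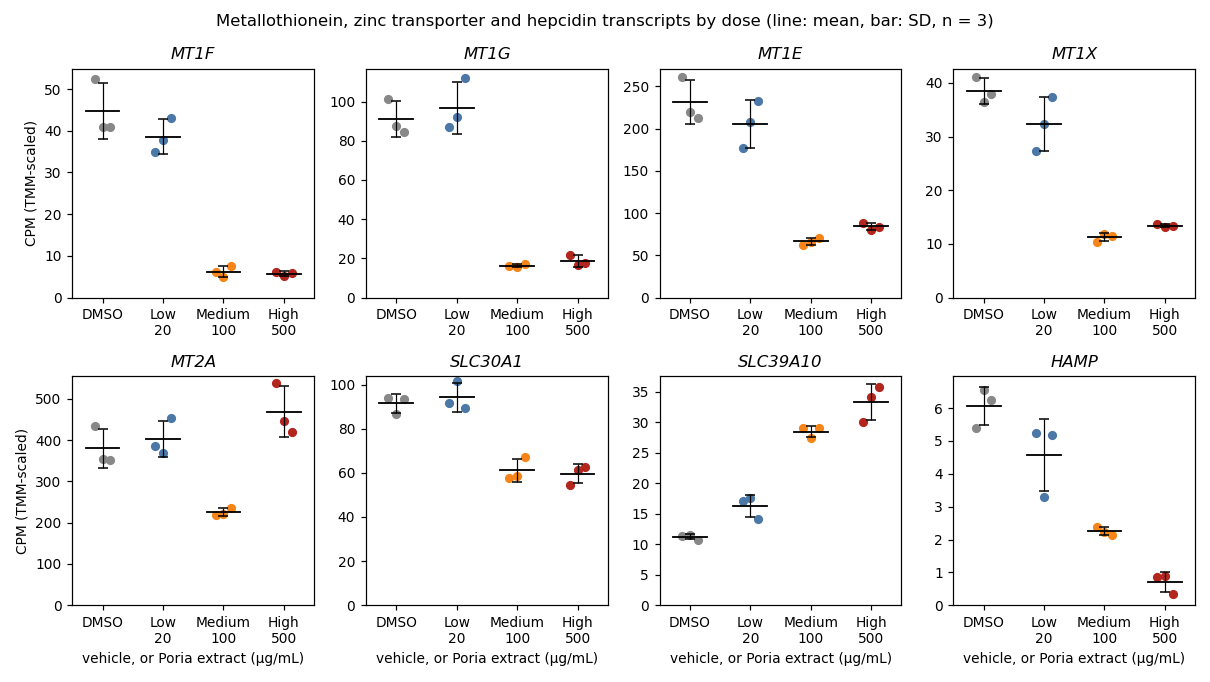
Levels in CPM (y axis, linear, from 0) of 5 metallothioneins, 2 zinc transporters and HAMP in vehicle and in Poria Low, Medium and High libraries (x axis, µg/mL). Points are libraries, the line is the mean and the bar the SD (n = 3). MT1F lies between 35.0 and 43.1 CPM at Low and between 4.92 and 7.60 CPM at Medium, while MT2A at High, 420 to 538 CPM, is back above its Medium values of 219 to 236 CPM.

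Immediate early genes rose as a group. Of 23 tested, 17 were called higher at Medium and 0 lower, with a median log2 change of 0.50. EGR1, a zinc finger transcription factor, had 54.9, 54.03 and 45.7 CPM at Medium, against 21.1, 19.3 and 17.7 CPM at Low. The Low libraries lay near the vehicle libraries (20.6 to 23.1 CPM) and the Medium libraries well above, with a log2 change of 1.41 ± 0.12 (adjusted p = 2.81e-12). The EGR1 promoter is shown because the gene had the largest log2 change of the list and its serum response is textbook knowledge. The 250 bases before its RefSeq start site are chr5:138465229-138465478 on GRCh38.p14, plus strand, with CArG boxes in capitals.
EGR1: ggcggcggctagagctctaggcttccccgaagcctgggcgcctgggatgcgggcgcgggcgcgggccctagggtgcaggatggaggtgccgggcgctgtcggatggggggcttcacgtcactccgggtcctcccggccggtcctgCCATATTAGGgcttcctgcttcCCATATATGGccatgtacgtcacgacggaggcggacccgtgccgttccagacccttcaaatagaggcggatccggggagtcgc
The 2 CArG boxes lie at positions -105 to -96 and -83 to -74 from the start site. Of the 35116 windows 1.16% held such a box. A promoter was found for 20 of the 27 listed genes, and in 3 of these, EGR1, EGR2 and SRF, at least 1 window held a box. The windows of FOS, JUN, ZFP36 and NR4A1 held none. Only these 250 bases were searched, so a box farther upstream would be missed.

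FOS, the partner of JUN in the AP-1 factor, was low in all libraries, with 1.62, 2.52 and 1.96 CPM at Medium, against 0.808, 0.693 and 0.913 CPM at Low. It was called higher without overlap (log2 change 1.33 ± 0.26, adjusted p = 0.000198). JUN had 28.97, 26.4 and 26.5 CPM at Medium, against 18.4, 14.5 and 15.2 CPM at Low (log2 change 0.77, adjusted p = 8.59e-10). ZFP36, which encodes tristetraprolin, an RNA-binding protein that hastens decay of AU-rich messages, had 14.7, 16.0 and 16.5 CPM at Medium, against 8.73, 6.77 and 7.43 CPM at Low (log2 change 1.04, adjusted p = 7.65e-10). IER3, a short-lived survival regulator, had 98.0, 91.4 and 93.3 CPM at Medium, against 44.5, 40.2 and 53.2 CPM at Low (log2 change 1.04, adjusted p = 6.57e-13). In all 3 of these genes the Medium libraries lay above every Low library. FOSB, with 0.808, 1.03 and 1.05 CPM at Medium, against 0.577, 0.408 and 0.374 CPM at Low, was called higher (log2 change 1.06, adjusted p = 0.0382). That call was lost without Medium replicate 2, Medium replicate 3, Low replicate 2 or Low replicate 3, with log2 changes of 1.01, 0.996, 0.99 and 0.94. The rest of the called members ran from MYC (0.24) to NR4A1 (0.69), and EGR3 had a log2 change of 0.74 that did not pass the test (adjusted p = 0.142). In the fit of the 6 libraries alone 11 of the 23 were called, none lower.

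Genes listed for ERK signalling and its feedback rose in smaller number, 8 of 22 tested, with 0 called lower and a median log2 change of 0.19. SPRY4, an inhibitor of the pathway, had 77.3, 72.4 and 72.4 CPM at Medium, against 44.0, 41.4 and 37.2 CPM at Low. Its log2 change was 0.86 ± 0.07 (adjusted p = 6.43e-13). The phosphatase gene DUSP6 rose by 0.40 on the log2 scale (adjusted p = 3.98e-07). HBEGF, a ligand of the EGF receptor, had 4.52, 4.32 and 3.01 CPM at Medium, against 2.04, 2.00 and 2.12 CPM at Low (log2 change 0.95, adjusted p = 1.54e-05). None of the 3 overlapped between the doses. ETV5, another transcriptional target of ERK, had a log2 change of 0.13 and did not pass the test.

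NRF2 target genes also rose: 17 of 28 tested were called higher and 3 lower, with a median log2 change of 0.26. AKR1B10, an aldo-keto reductase, had the largest rise among all genes eligible to be named. It had 124, 114 and 118 CPM at Medium, against 42.2, 36.4 and 41.0 CPM at Low (log2 change 1.57 ± 0.07, adjusted p = 5.15e-21). The groups were far apart, and vehicle libraries had 40.2 to 41.5 CPM. SLC7A11, the cystine carrier that feeds glutathione synthesis, had 61.3, 59.7 and 65.2 CPM at Medium, against 33.1, 39.0 and 31.1 CPM at Low (log2 change 0.85, adjusted p = 3.34e-12). SQSTM1, an autophagy adaptor that binds KEAP1, had 292, 272 and 267 CPM at Medium, against 163, 156 and 171 CPM at Low (log2 change 0.76, adjusted p = 6.05e-17). Neither gene overlapped between the doses. SRXN1, which repairs peroxiredoxins, rose by 0.60 on the log2 scale, GCLM and GCLC, the subunits of glutamate-cysteine ligase, by 0.53 and 0.45, TXNRD1 by 0.49 and NQO1 by 0.48. Among the members called lower were HMOX1, the heme oxygenase gene (-0.23), and EPHX1 (-0.23). HMOX1 had 56.6, 56.7 and 57.1 CPM at Medium, against 63.8, 67.1 and 69.2 CPM at Low, so that it went the other way from most of the list. NFE2L2, which encodes NRF2, had a log2 change of 0.05 and did not pass the test.

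**Figure D2:**
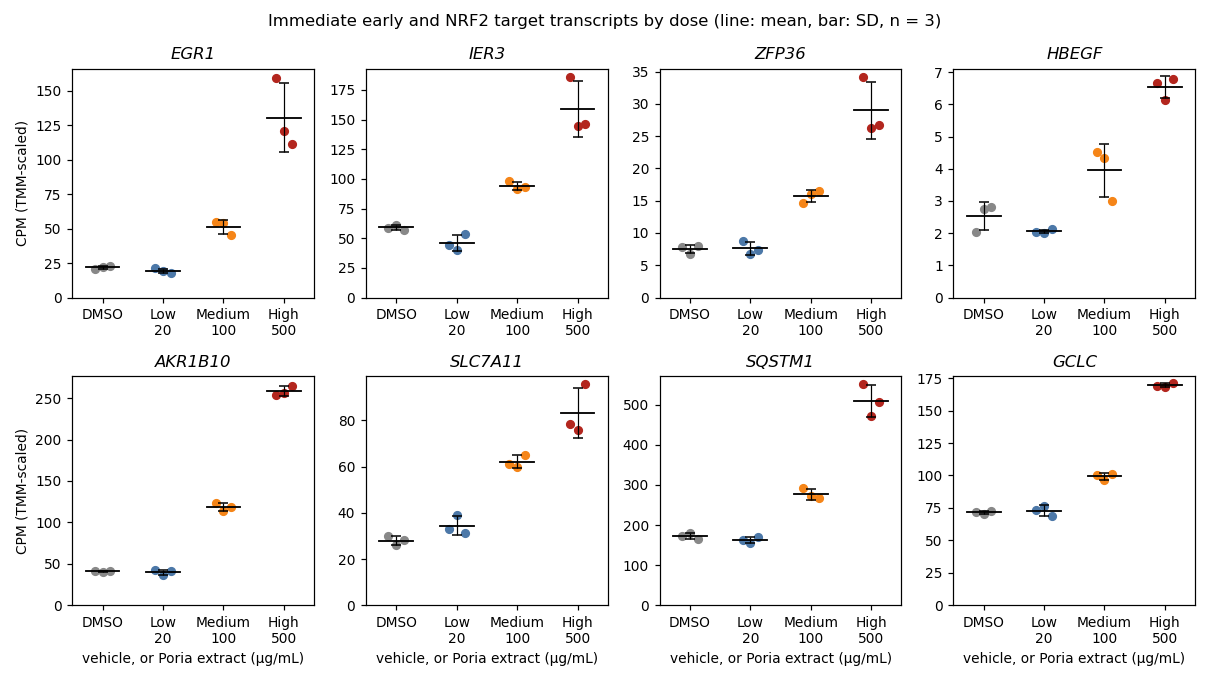
Levels in CPM (y axis, linear, from 0) of 4 immediate early or ERK feedback genes (upper row) and 4 NRF2 targets (lower row) in vehicle and in Poria Low, Medium and High libraries (x axis, µg/mL). Points are libraries, the line is the mean and the bar the SD (n = 3). EGR1 lies between 17.7 and 21.1 CPM at Low, between 45.7 and 54.9 CPM at Medium and between 112 and 159 CPM at High.

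Cholesterol synthesis genes fell together, each by little. Of 24 tested, 20 were called lower at Medium and 1 higher, with a median log2 change of -0.25. The largest fall was in TM7SF2, a sterol reductase of the late pathway, with 41.6, 39.1 and 41.8 CPM at Medium, against 64.0, 68.3 and 75.4 CPM at Low (log2 change -0.76 ± 0.06, adjusted p = 3.51e-13). LSS, which closes the ring system of the sterols, had 157, 160 and 173 CPM at Medium, against 230, 246 and 242 CPM at Low (log2 change -0.55, adjusted p = 2.28e-13). In both genes each Medium library was below each Low library. With the 6 libraries alone 11 members were called lower and 1 higher.

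Genes of fatty acid and triglyceride synthesis fell as well, 13 of 20 tested with 0 called higher and a median log2 change of -0.17. ACSS2, which makes acetyl-CoA from acetate, had 87.6, 88.1 and 93.1 CPM at Medium, against 148, 154 and 151 CPM at Low. The fall was uniform over the libraries (log2 change -0.75 ± 0.04, adjusted p = 1.48e-17). GPAM, the first enzyme of glycerolipid synthesis, had 157, 123 and 140 CPM at Medium, against 217, 211 and 184 CPM at Low (log2 change -0.54, adjusted p = 1.69e-09). DGAT1, which completes the triglyceride, fell by 0.54 on the log2 scale (adjusted p = 1.29e-07). FASN, the fatty acid synthase gene, had 1610, 1489 and 1657 CPM at Medium, against 1821, 1920 and 1624 CPM at Low. It was called lower (-0.17, adjusted p = 0.0327), but Low replicate 3 lay below Medium replicate 3, so the groups overlapped. The FASN call was lost without Medium replicate 1 (-0.19), Low replicate 1 (-0.16), Medium replicate 2 (-0.13) or Low replicate 2 (-0.12). With the 6 libraries alone 7 of the 20 were called, all lower.

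Of 17 acute phase genes tested, 7 fell and 2 rose at Medium. The list of hepatocyte secreted and lineage genes had 6 lower and 2 higher of 24 tested (3 and 0 with the 6 libraries alone, and 1 higher without replicate 1 or 2 of either dose), and the 8 hepatic markers 1 lower and 1 higher. Those 8 markers summed to 62707 to 67200 CPM at Medium and 58393 to 61952 CPM at Low, so the summed level was higher at Medium without overlap. The marker called higher was APOB (0.25), which alone ran from 12997 to 21415 CPM over the 6 libraries, and ALB was called lower (-0.15). The APOB call was lost without Medium replicate 2 or Low replicate 3. The ALB call was lost without any 1 of the Medium libraries or without Low replicate 3, and neither was called with the 6 libraries alone. HP, the hemoglobin-binding haptoglobin, had 159, 159 and 157 CPM at Medium, against 276, 257 and 318 CPM at Low (log2 change -0.84 ± 0.07, adjusted p = 1.13e-12). The fibrinogen chain genes FGA, FGG and FGB had log2 changes of -0.56, -0.54 and -0.20, all called, and HPX, the gene of the heme carrier hemopexin, -0.69. The genes called higher were CP, the copper protein ceruloplasmin (0.41), and FTL, ferritin light chain (0.34), which is also an NRF2 target. KNG1, which encodes kininogen, fell to 4.66, 5.09 and 4.89 CPM at Medium, against 10.2, 11.8 and 11.4 CPM at Low (log2 change -1.19, adjusted p = 5.26e-12). GNMT, the glycine methyltransferase gene of methionine metabolism, had 1.80, 1.37 and 1.18 CPM at Medium, against 4.00, 3.22 and 4.78 CPM at Low (log2 change -1.45 ± 0.19, adjusted p = 1.07e-07). Neither overlapped between the doses.

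Drug metabolism genes were split. GSTA2 and GSTA1 encode alpha-class glutathione transferases and are close copies of each other, so their reads may be divided wrongly between them. GSTA2 had 7.05, 7.19 and 7.16 CPM at Medium, against 15.0, 13.9 and 17.4 CPM at Low (log2 change -1.11, adjusted p = 3.51e-13). GSTA1 had 17.0, 14.7 and 16.4 CPM at Medium, against 30.2, 28.1 and 37.2 CPM at Low (log2 change -0.98, adjusted p = 6.08e-11). Both fell without overlap, and so did CYP3A7, the fetal form of CYP3A (-0.86). UGT1A1, the bilirubin glucuronosyltransferase gene, rose to 22.5, 24.2 and 23.6 CPM at Medium, against 13.2, 14.5 and 14.2 CPM at Low (log2 change 0.75, adjusted p = 2.19e-12). In the list of PXR and CAR targets as a whole 5 of 13 tested were lower and 2 higher. Of the 13 tested genes of bile acid synthesis and transport 7 fell and 1 rose. NR1H4, the bile acid receptor FXR, had 30.9, 27.9 and 29.9 CPM at Medium, against 49.1, 50.3 and 52.5 CPM at Low (log2 change -0.78 ± 0.05, adjusted p = 2.99e-15). BAAT, which joins bile acids to glycine and taurine, rose by 0.59 on the log2 scale (adjusted p = 2.56e-07). The bile acid counts were 4 lower and 1 higher with the 6 libraries alone.

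The other large rises were in genes of varied function. CEMIP, a hyaluronan-degrading protein, had 50.7, 73.1 and 76.4 CPM at Medium, against 19.6, 28.7 and 21.8 CPM at Low (log2 change 1.51 ± 0.14, adjusted p = 3.65e-11). Replicate 1 was the lowest library of each dose, and Medium and Low did not overlap. AKAP12, a scaffold of protein kinases A and C, had 362, 383 and 366 CPM at Medium, against 175, 182 and 155 CPM at Low (log2 change 1.12 ± 0.05, adjusted p = 1.3e-20). AQP3, a water and glycerol channel, PHLDA2, a growth-restraining imprinted gene, RASD1, a Ras-like protein gene, and S100A14, a calcium-binding protein gene, had at most 6.93 CPM in any Medium library. Their log2 changes were 1.19, 1.12, 1.10 and 1.05, each without overlap. BCAN-AS2, an antisense transcript, was called higher (1.22), but the strand setting of the counting is not stated, so reads from the opposite strand cannot be told apart. The remaining large falls were in the amino acid carrier gene SLC38A4 (-1.01), the Notch regulator gene DTX4 (-0.95) and TIGD3 (-0.94). For the largest rises and falls, here and above, no overlap was a condition of being named and adds no support.

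Stress and growth lists were called in part. Of 30 tested hypoxia and glycolysis genes 12 were called higher and 0 lower, with a median log2 change of 0.28. SLC2A1, the glucose carrier GLUT1, had 299.8, 354 and 348 CPM at Medium, against 193, 241 and 229.9 CPM at Low (log2 change 0.59, adjusted p = 7.56e-08). HK2, the first enzyme of glycolysis, rose by 0.53 on the log2 scale. In this list 7 members were called without Low replicate 1, without Medium replicate 2 or without Medium replicate 3, none of them lower, 19 with no filter on low counts and 20 with the replicate number as a block. Of 21 integrated stress response genes 8 rose and 1 fell, and of 21 unfolded protein response genes 7 rose and 0 fell, the largest being ERN1, a sensor kinase (0.46). The rises with the 6 libraries alone numbered 8 for hypoxia and glycolysis, 5 for the integrated stress response and 2 for the unfolded protein response. Among 29 mitosis genes 11 fell and 0 rose, with CCNB2, a mitotic cyclin, at -0.28 and the kinesin KIF20A at -0.23, but with the 6 libraries alone 3 fell. MKI67, the proliferation marker, did not pass the test (log2 change 0.10, adjusted p = 0.495).

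**Figure D3:**
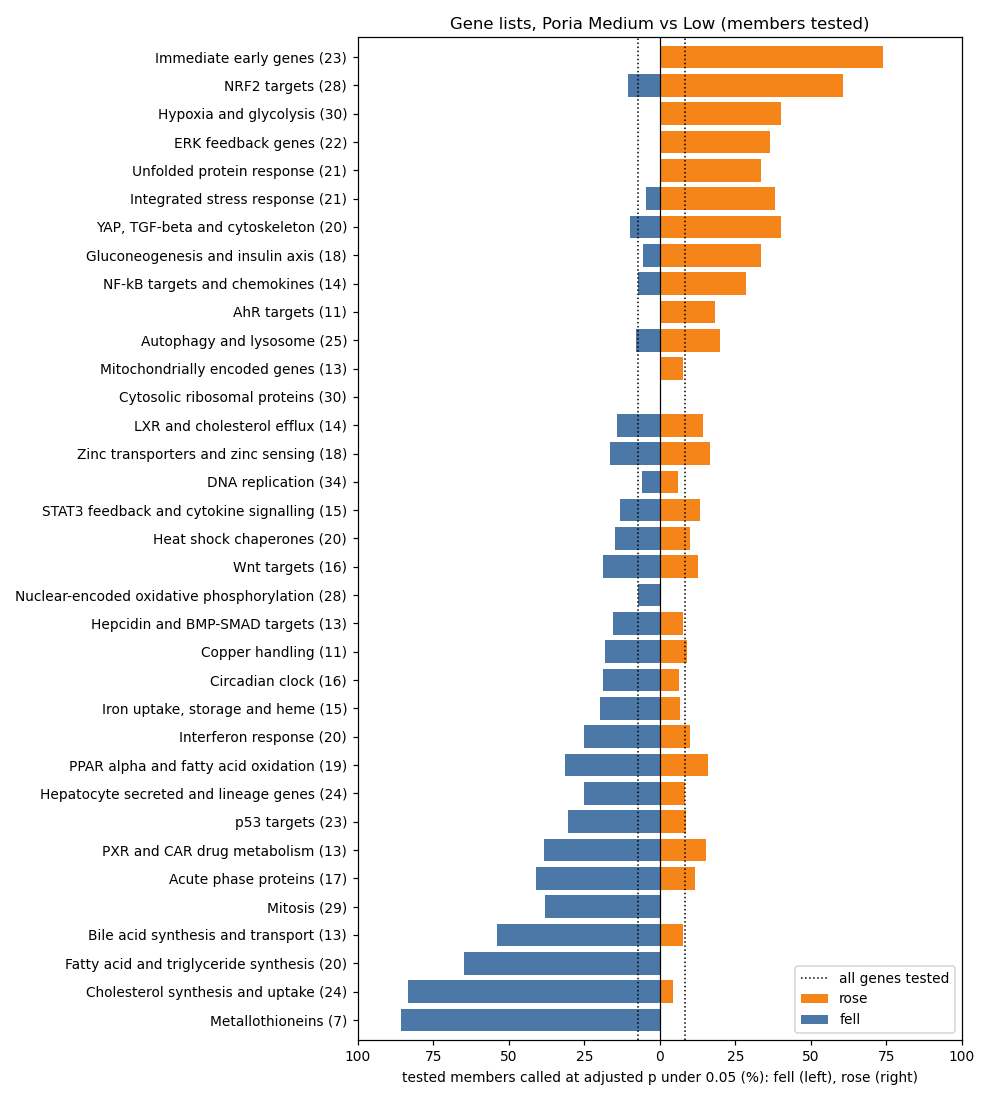
Percent of the tested members of each gene list called at an adjusted p under 0.05 between Poria Medium and Low (x axis, rises to the right and falls to the left of 0), with the number tested in brackets. Dotted lines mark all genes tested, 8.16% higher and 7.29% lower. Immediate early genes reach farthest to the right, with 17 of 23, and metallothioneins farthest to the left, with 6 of 7.

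The next dose step, High against Medium, is also 5-fold and shares the Medium libraries with the first step, so the values of the steps are set side by side. At this step 2372 genes were called, 14.6% of those tested, with 1363 higher (8.37%) and 1009 lower (6.2%). The difference of the steps, (High minus Medium) minus (Medium minus Low), was called for 87 genes, 0.534% of those tested. Of these, 55 were positive (0.338%) and 32 negative (0.197%), and 71 had been called between Medium and Low. The step difference contains the Medium vs Low change, so this overlap is partly built in. The count was 44 without Medium replicate 2, 47 without Medium replicate 3 and 10 with the 9 Poria libraries alone, 9 positive and 1 negative. The step differences of genes and lists given below are from the fit of 54 libraries. The list counts of step differences were not repeated in other settings.

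Of the 7 tested metallothioneins 5 had a positive step difference. MT1F had 6.195, 5.09 and 5.98 CPM at High, near its Medium values, and its change at the upper step was -0.10 on the log2 scale (adjusted p = 0.823). The step difference was 2.54 ± 0.32 (adjusted p = 1.15e-06). MT2A was higher again, with 538, 447 and 420 CPM at High, above all Medium libraries (log2 change 1.06, adjusted p = 5.52e-08). Its step difference was 1.90 ± 0.23 (adjusted p = 7.98e-07). MT1E had 88.4, 80.4 and 83.7 CPM at High and was also higher than at Medium (log2 change 0.34, adjusted p = 0.00929). SLC30A1 stayed low, with 54.6, 61.3 and 62.8 CPM at High (upper step -0.04, adjusted p = 0.771) and a step difference of 0.59 (adjusted p = 0.000455). HAMP was lower again, with 0.856, 0.892 and 0.342 CPM at High (upper step -1.73, adjusted p = 4.87e-06), and its step difference did not pass the test (adjusted p = 0.634).

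For cholesterol genes the steps differed in part. In the cholesterol list 4 rose and 3 fell at the upper step, with a median log2 change of 0.04, and 10 of 24 had a positive step difference. Those 10 cannot all hold with the 9 Poria libraries alone, where 9 genes in all were positive. LSS had 161, 152 and 153 CPM at High, little different from Medium (upper step -0.07, adjusted p = 0.293, step difference 0.48, adjusted p = 0.000126). ACSS2 had 90.4, 104 and 90 CPM at High (upper step 0.08, adjusted p = 0.269, step difference 0.83, adjusted p = 6.39e-10). HP and GSTA2 likewise had positive step differences, of 0.89 (adjusted p = 1.08e-05) and 1.07 (adjusted p = 0.000115).

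Immediate early and NRF2 genes changed at both steps. Of the immediate early genes 15 rose and 1 fell at the upper step, with a median of 0.53 beside 0.50 at the lower step, and of the NRF2 targets 22 rose and 0 fell, with a median of 0.33 beside 0.26. EGR1 had 159, 121 and 112 CPM at High (upper step 1.34, adjusted p = 1.03e-12), and its step difference was -0.07 ± 0.20 (adjusted p = 0.971). AKR1C1, another aldo-keto reductase gene with close copies, rose by 0.33 on the log2 scale at the lower step and by 1.04 at the upper step, with a step difference of 0.72 (adjusted p = 1.53e-05). HMOX1 was higher at the upper step, with 81.0, 63.8 and 70.4 CPM at High, all above the Medium libraries (0.34, adjusted p = 4.54e-05).

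Of the 16284 genes tested, 15.5% were called at the lower step and 14.6% at the upper. At both steps 644 genes were called higher and 390 lower. A further 12 were called higher at the first and lower at the second, and 19 the reverse. The Medium libraries enter the steps with opposite signs, so their spread favours opposite changes, and whether it did so here was not tested. ASNS, which makes asparagine and is a target of ATF4, had 37.9, 38.0 and 36.8 CPM at Low, 58.2, 53.1 and 55.5 CPM at Medium and 43.1, 43.1 and 50.3 CPM at High. It was highest at Medium without overlap (lower step 0.57, adjusted p = 3.79e-10, upper step -0.29, adjusted p = 0.000327). ALDH1L2, a mitochondrial folate enzyme gene, had 4.42, 4.69 and 4.03 CPM at Low, 7.12, 7.83 and 7.16 CPM at Medium and 4.89, 6.30 and 5.38 CPM at High. It too was highest at Medium, with a step difference of -1.17 ± 0.16 (adjusted p = 1.08e-05). In the integrated stress response list 2 of 21 had a negative step difference, ASNS with -0.85 (adjusted p = 2.19e-07) and STC2, the stanniocalcin gene, with -0.54 (adjusted p = 0.0135).

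**Figure D4:**
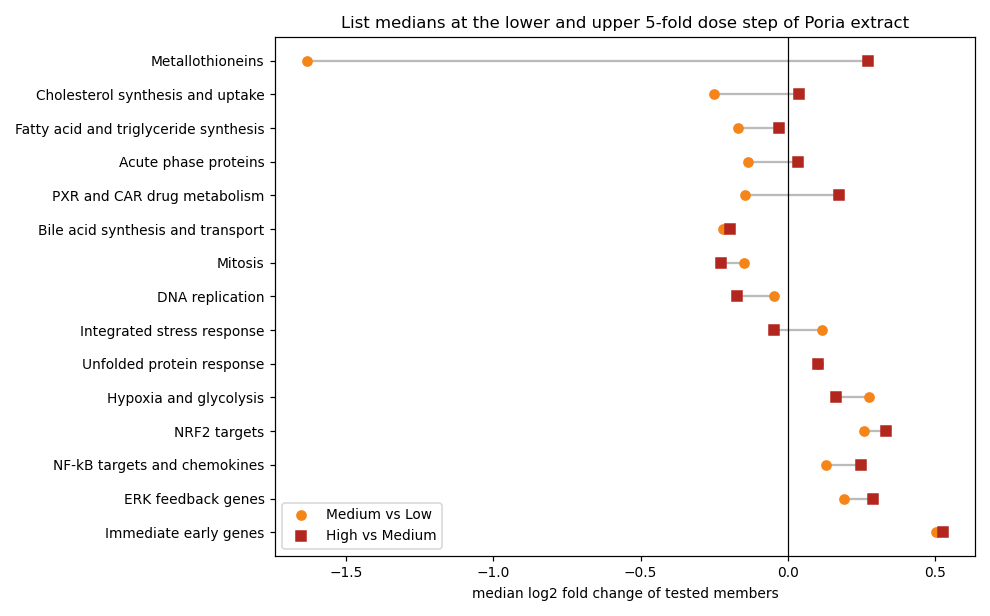
Median log2 change (x axis) of the tested members of 15 gene lists at the lower dose step, Medium vs Low (circles), and the upper, High vs Medium (squares). Metallothioneins lie at -1.63 and 0.27, whereas immediate early genes lie at 0.50 and 0.53.

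The same Medium vs Low comparison was made in the extracts of Atractylodis, Glycyrrhiza and ginseng, each at 100 and 20 µg/mL. It called 0 genes in Atractylodis by edgeR, with 721 at an unadjusted p under 0.05, and 1 in ginseng, 0.00614%, with 725. In Glycyrrhiza it called 579 genes, which is 3.56%. The difference between the Poria change and that of the other extract was called for 712 genes against Atractylodis (4.37%, with 2.57% higher in Poria and 1.8% lower), 630 against Glycyrrhiza (3.87%, with 2.33% higher and 1.54% lower) and 813 against ginseng (4.99%, with 2.75% higher and 2.25% lower). With only the groups compared in the fit the counts were 232, 331 and 397.

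The falls of MT1E, MT1F, MT1G and MT1X differed from the changes in each of the 3 extracts. The summed level of the list was 770.2 to 952 CPM in Atractylodis Medium and 891 to 1090 CPM in Atractylodis Low, 905 to 1044 CPM in Glycyrrhiza Medium and 913 to 1010 CPM in Glycyrrhiza Low, and 927 to 978 CPM in ginseng Medium and 994 to 1056 CPM in ginseng Low. Poria Medium, at 315 to 344 CPM, lay below all of these libraries. Poria Low, at 713 to 881 CPM, also lay below all Glycyrrhiza, ginseng and Atractylodis Low libraries, and overlapped Atractylodis Medium. It overlapped the vehicle libraries too, at 730 to 894 CPM, so Poria Low was not set apart from vehicle. Levels thus differed between extracts at Low too, and Glycyrrhiza and ginseng carry another set code than Poria and Atractylodis. MT1G changed by -2.58 on the log2 scale in Poria and by -0.17 in Atractylodis, -0.04 in Glycyrrhiza and -0.05 in ginseng. The differences were -2.41 (adjusted p = 6.14e-13), -2.53 (adjusted p = 1.18e-13) and -2.53 (adjusted p = 2.1e-13). In the metallothionein list 6 members were called lower in Poria than in Atractylodis and 7 lower than in Glycyrrhiza, with 0 higher in either. SLC30A1 and SLC39A10 also differed from all 3 extracts, the largest adjusted p being 2.31e-06 for SLC30A1 and 0.000134 for SLC39A10.

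EGR1 changed by 1.41 in Poria and by 0.12 in Atractylodis, 0.15 in Glycyrrhiza and 0.12 in ginseng, and all 3 differences were called (adjusted p = 1.56e-06, 2.39e-06 and 9.78e-07). CEMIP changed by 1.51 in Poria and by 0.17, 0.21 and 0.20 in the same extracts, and its differences were called too. AKR1B10 changed by 1.57 in Poria, against 1.22 in Glycyrrhiza, 0.33 in Atractylodis and 0.40 in ginseng, and the difference from Glycyrrhiza had an adjusted p of 0.0293. GCLM, at 0.53 in Poria and 0.61 in Glycyrrhiza, did not pass the test of their difference (adjusted p = 0.76). AQP3, at 1.19 in Poria and 1.00 in Glycyrrhiza, did not pass it either (adjusted p = 0.743). CYP1A1, the classical target of the aryl hydrocarbon receptor, rose less in Poria, with a change of 0.72 in Poria and 2.96 in Glycyrrhiza (difference -2.25, adjusted p = 1.18e-13). In the cholesterol list 11 members were called lower and 1 higher in Poria than in Atractylodis, and 3 lower and 1 higher than in Glycyrrhiza. The list's median log2 change was -0.25 in Poria, -0.05 in Atractylodis, -0.18 in Glycyrrhiza and -0.006 in ginseng. ACSS2 at -0.75 in Poria, -0.11 in Atractylodis, -0.41 in Glycyrrhiza and -0.08 in ginseng differed from each of them, with a largest adjusted p of 0.000214. GSTA2, lower in Poria, had positive changes in the others, 0.27 in Atractylodis, 0.26 in Glycyrrhiza and 0.09 in ginseng, and the differences were called in all 3.

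**Figure D5:**
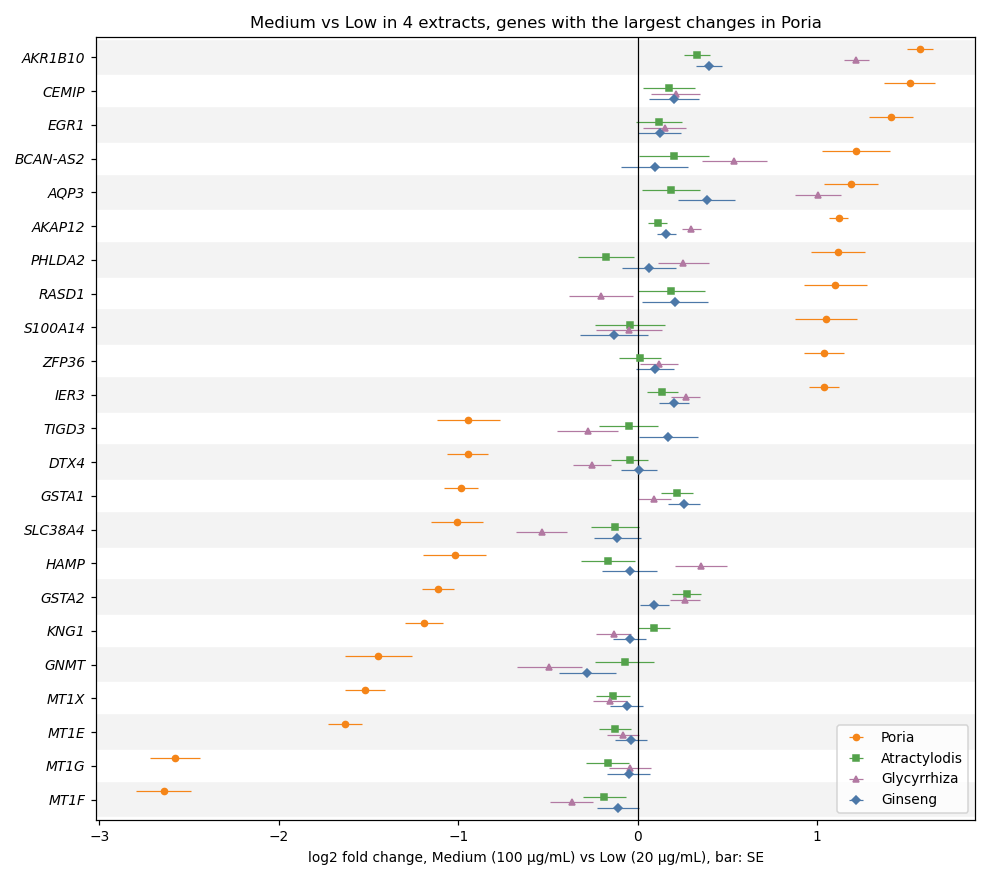
Log2 change between Medium and Low (x axis, bar: SE) in Poria (circles), Atractylodis (squares), Glycyrrhiza (triangles) and ginseng (diamonds) for genes with the largest rises and falls in Poria. MT1F is at -2.64 in Poria and between -0.37 and -0.11 in the other extracts, and AKR1B10 at 1.57 in Poria and 1.22 in Glycyrrhiza.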

How the data were processed

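Messenger RNA of HepG2 cells was sequenced. Per the submitters' processing notes, reads were processed with FastQC 0.11.9, Trim Galore 0.6.5, STAR 2.7.3a and RSEM 1.3.3 on GRCh38. The authors deposited RSEM's expected counts per gene, without normalisation. They need not be whole: 23.4% of those above 0 lie more than 0.005 from a whole number. The annotation release and strand setting are not given in the sources used here. The table has 60675 genes and 270 sample columns. The 60 columns of these samples were read, and the other 210 are not used here. Depth ran from 19057230 to 33233215 counts per library, and precision at low counts is set by it. Coordinates are from GENCODE release 29 and promoter sequences from RefSeq (GRCh38.p14).

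Expected counts were rounded to whole numbers, and filterByExpr kept 16284 genes. Library sizes were TMM-scaled. The test was edgeR's quasi-likelihood test (edgeR 4.0.16, R 4.3.3), with p-values adjusted over all genes tested after Benjamini and Hochberg and called under 0.05. All p-values of genes come from this test. The model had 54 libraries in 19 groups, each group with its own coefficient, so that all share an estimate of the spread (coefficient of variation 5.63%). The 6 libraries of groups with a single library stayed out. Contrasts were Poria Medium vs Low, Poria High vs Medium, the difference of these steps, and Poria Medium vs Low minus the same contrast in Atractylodis, Glycyrrhiza and ginseng. Fold changes are edgeR log2 values with their SE, and levels are CPM after TMM scaling. No pair of replicate libraries within a Poria group was close enough in counts to be the same library. The other groups were not checked for this. The fits were tested on simulated data.

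Genes were named by rule: the 12 largest rises and falls called, with a unique symbol, a mean of at least 2 CPM and no overlap between doses; up to 4 called members per gene list; and the 5 largest of each step difference, opposite pair of steps and extract difference. A further 22 list members, and the markers, were named after their values were seen. The comparison and the 39 lists, with 753 genes, 751 matched and 674 tested, were chosen with earlier results of these data known. Alternatives were DESeq2 1.42.0, its size factors, other filters, fewer libraries in the fit, a replicate block, leaving out each library, and leaving out the mitochondrially encoded genes. A mitochondrial covariate was added after seeing the data. Results for some genes are not reported here.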

Additional observations from a re-analysis of the deposited data

Results flagged for a closer look

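Genes are given here where the change from Low to Medium in Poria differed from the change in another extract by a test of that difference (edgeR's quasi-likelihood test, adjusted p under 0.05). The difference was called for 712 genes against Atractylodis, 630 against Glycyrrhiza and 813 against ginseng. The genes named were chosen among those also called between the Poria doses, with a unique symbol and a mean of at least 2 CPM. Their call in Poria was thus set by the choice. Values are the Poria log2 change minus that of the other extract. Groups of 3 libraries are too small for the check of single libraries that stand apart.

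Against Atractylodis, the largest positive differences were CEMIP 1.34, EGR1 1.29, PHLDA2 1.29 and AKR1B10 1.24. The largest negative ones were MT1F -2.46, MT1G -2.41, MT1E -1.50, GSTA2 -1.39 and MT1X -1.38. No gene was called between the doses in Atractylodis by edgeR, where 721 had an unadjusted p under 0.05.

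Against Glycyrrhiza, the largest positive differences were TUBB1 1.69, ITGA10 1.34, RASD1 1.3, CEMIP 1.3 and EGR1 1.26, and the largest negative ones were MT1G -2.53, MT1F -2.27, CYP1A1 -2.25, MT1E -1.55 and GSTA2 -1.38. TUBB1 had 10.1, 25.3 and 24.1 CPM at Poria Medium and 4.69, 13.3 and 9.67 CPM at Poria Low, so the doses overlapped and replicate 1 was the lowest at each. Its call between the Poria doses (log2 change 1.10, adjusted p = 0.0192) was lost without Low replicate 1, without Medium replicate 2 or without Medium replicate 3, with log2 changes of 0.78, 0.88 and 0.93. It was also lost with the 6 libraries alone and with the 9 Poria libraries alone.

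Against ginseng, the largest positive differences were CEMIP 1.31, EGR1 1.29, S100A14 1.18, AKR1B10 1.18 and BCAN-AS2 1.12. The largest negative ones were MT1F -2.53, MT1G -2.53, MT1E -1.59, MT1X -1.46 and GSTA1 -1.24. CEMIP, EGR1, MT1E, MT1F and MT1G are in all 3 sets. The 3 contrasts share the Poria libraries, so they are not independent of each other.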

How the results depend on the processing

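With only the groups compared in the fit, 827 genes were called for Poria Medium vs Low, 1099 for High vs Medium, 10 for the step difference, and 232, 331 and 397 for the differences from Atractylodis, Glycyrrhiza and ginseng. With the 9 Poria libraries alone the first 3 counts were 926, 836 and 10. Fewer libraries leave fewer degrees of freedom for the spread, which is then that of these libraries only. What lowered the counts was not tested. The step difference also called 207 genes with no filter on low counts and 147 with a replicate block. Every other planned setting kept each of these counts within 1.5 times, except single libraries left out of the step difference, and the mitochondrial covariate, chosen after seeing the data, did too.

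Leaving out 1 library at a time gave 1913 to 2491 genes for Medium vs Low, 1800 to 2006 for High vs Medium, 44 to 104 for the step difference, 539 to 757 against Atractylodis, 465 to 711 against Glycyrrhiza and 560 to 900 against ginseng. The step count was 44 without Medium replicate 2 and 47 without Medium replicate 3. Where this left 2 libraries, they were assumed to vary like the other groups.

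Whether the replicate numbers pair the samples is not settled. Deviations of same-numbered Medium and Low libraries correlated at 0.088, -0.075 and -0.028, and those of Low and High at 0.053, -0.079 and -0.011. Between Medium and High they correlated at 0.105, 0.08 and 0.091, where each Medium library correlated best with its own number, a hint from the data and not the design. A fit with the number as a block called 2792 genes for Medium vs Low. Between Medium and Low not every library correlated best with its own number.

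Of the 153 named genes none changed direction under any setting. The call was lost for 46 with only the groups compared, 45 with the 9 Poria libraries, 9 with no filter, 9 with the mitochondrial covariate, 3 of 151 with DESeq2, 1 of 152 without mitochondrially encoded genes, and 6 to 27 with a library left out. Of 15 further list members named as called, 6 lost the call in at least 1 setting. Among genes that did not pass the test, the sign of a log2 change near 0 turned: NFE2L2 to -0.023 and MKI67 to -0.005 with the mitochondrial covariate, and with a library left out MTF1 ran from -0.074 to 0.11 and MKI67 from -0.03 to 0.18. CDKN1A passed the test with no filter and with the block. The cause of these changes was not tested. Low metallothionein and immediate early transcripts, under about 2 CPM, are limited by depth.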

Other observations

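Of 20 tested genes of the list of YAP, TGF-beta and cytoskeleton 8 rose and 2 fell, with 4 and 1 with the 6 libraries alone, and 1 fall without Medium replicate 2. CCN1, a matrix-associated YAP target, had a log2 change of 0.63. Of 14 NF-kB targets 4 rose and 1 fell, NFKBIA, the inhibitor of the pathway (log2 change -0.30), and 4 rose and 0 fell with the 6 libraries alone. CCL20, a chemokine, had 80.6, 87.3 and 83.98 CPM at Medium, against 38.7, 56.0 and 66.4 CPM at Low (log2 change 0.65, adjusted p = 1.34e-05 by edgeR).

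GDF15, a stress-induced cytokine counted among p53 targets, had 298, 234 and 230.2 CPM at Medium, against 144, 119 and 155 CPM at Low (log2 change 0.87, adjusted p = 5.05e-09). The p53 list as a whole had 2 higher and 7 lower of 23, among them FDXR at -0.46 and DDB2 at -0.33, while CDKN1A had a log2 change of 0.26 and did not pass the test. With the 6 libraries alone 3 of the 23 were lower, and 4 without Medium replicate 2.

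Of 20 interferon response genes 5 fell and 2 rose, with PSMB9, an immunoproteasome subunit, at -0.63 and ISG20, an exonuclease, at 0.54. The counts were 2 and 1 with the 6 libraries alone, and the falls numbered 3 without Medium replicate 3 and the rises 1 without Medium replicate 2, Medium replicate 3 or Low replicate 2. Of 19 genes of PPAR alpha and fatty acid oxidation 6 fell and 3 rose, with ACSL1, which activates fatty acids, at -0.46. Those counts were 4 and 1 with the 6 libraries alone. BHLHE40, a repressor in the circadian clock, had 77.2, 85.8 and 78.5 CPM at Medium, against 44.8, 50.3 and 45.9 CPM at Low, without overlap (log2 change 0.78, adjusted p = 1.25e-12).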
